A study of Mus musculus with 18 samples.

Results

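Integrins are the receptors by which cells hold on to the matrix, and laminins are the proteins that lay down the basement membrane many of them hold on to. The genes described here are 38 protein-coding genes whose symbols follow the naming of integrin alpha and beta subunits (28 genes) or of laminin alpha, beta and gamma chains (10 genes). They were found by symbol among the 25003 gene symbols in the deposited tables, without the integrin-binding proteins Itgb1bp1, Itgb1bp2 and Itgb3bp. Of the 28, 9 are known mainly from leukocytes and are kept apart, and Itgbl1 carries the symbol pattern but encodes a secreted integrin-beta-like protein, not a receptor subunit. The table of high-fat and low-fat tumours held 37 of these genes among 22137, with no row for Itgb6, and the table of hairpin tumours held 38 among 24778.

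An integrin is a pair of 1 alpha and 1 beta subunit that spans the membrane, binds matrix or another cell outside, and recruits talin, kindlin and focal adhesion kinase inside. The pairing sets the ligand: alpha1, alpha2, alpha10 and alpha11 with beta1 bind collagens, alpha3, alpha6 and alpha7 with beta1 and alpha6 with beta4 bind laminins, and alpha5, alpha8, alphav and alphaIIb bind matrix proteins with the Arg-Gly-Asp motif. Laminins are trimers of an alpha, a beta and a gamma chain. In the liver they are sparse along the normal sinusoids and are found around vessels, bile ducts and tumours.

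MC38 is a colon carcinoma line of the mouse, and its cells were injected into the spleen of wild-type mice to seed the liver metastases whose RNA was sequenced. High-fat-fed mice gave 5 tumours (HFD) and low-fat-fed mice gave 5 (LFD). A further 4 tumours are labelled as carrying a hairpin against Yap (shYap) and 4 a control hairpin (shCon), and the mice of both of these groups ate the high-fat diet. Yap is a transcriptional coactivator that acts with TEAD factors. The labels do not give the sex or age of the mice, the number of clones of the hairpin lines, or whether each library is 1 animal, so p-values here measure only the spread between libraries, which may be technical. Values are CPM, counts scaled to a common library total, corrected by TMM factors within each table, and no test was made between tables. A gene was called where edgeR's quasi-likelihood test gave a Benjamini-Hochberg adjusted p under 0.05 over all genes tested in its table. Fold changes are log2 values ± SE, of HFD over LFD or of shYap over shCon.

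Libraries held 17766185 to 18474195 counts in the table of HFD and LFD and 17207187 to 21309901 in the table of shYap and shCon. Markers of liver and host cells differed between the diet groups. The counts of markers called are to be read against all genes tested, of which 19.4% were higher and 21.6% lower. Summed CPM of 11 hepatocyte markers was 493 to 4431 in HFD and 10560 to 100300 in LFD, all 11 being lower, and that of 11 fibroblast and stellate cell markers was 6456 to 8550 in HFD and 2986 to 5566 in LFD, with 4 higher and none lower. Pan-leukocyte markers summed to 979 to 1153 CPM in HFD and 934 to 1782 in LFD, with 7 of 10 lower, and T cell markers to 13.2 to 47.7 in HFD and 38.5 to 130 in LFD, with 10 of 10 lower. Epithelial and cholangiocyte markers, which include Spp1, summed to 1364 to 1639 CPM in HFD and 378 to 1021 in LFD, with 2 of 8 higher and 1 lower, and Spp1 alone averaged 1189 CPM in HFD and 312.5 in LFD. No marker on these lists was at 0 in every library of a group. Xist, which coats the inactive X chromosome in females, had 1 to 6 counts per HFD library and 1406 to 2579 per LFD library, so a difference in sex or in the source of this RNA cannot be told apart from diet. In tissue RNA, fewer cells of a type and less RNA per cell cannot be told apart either.

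Promoters are shown for the members whose window holds a core of the TEAD motif, the letters GGAATG or their complement CATTCC on either strand, since one comparison concerns Yap. Windows ran from 250 bases before to 50 bases after the start in RefSeq on GRCm38.p6, and 25 of the 38 genes had 1 or more. The motif, in capitals, stood in 3 of their 28 windows (10.7%) and in 4817 of all 32851 windows of this length (14.7%). They belong to Itga10 (chr3:96645334-96645633, plus strand), Itgb1 (chr8:128685404-128685703, plus strand) and Lamb3 (chr1:193301993-193302292, plus strand).
Itga10: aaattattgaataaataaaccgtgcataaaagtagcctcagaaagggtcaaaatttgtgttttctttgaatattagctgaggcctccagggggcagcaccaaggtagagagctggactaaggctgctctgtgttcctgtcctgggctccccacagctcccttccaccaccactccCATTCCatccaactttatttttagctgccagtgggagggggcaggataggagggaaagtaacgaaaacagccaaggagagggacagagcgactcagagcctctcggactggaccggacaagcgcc
Itgb1: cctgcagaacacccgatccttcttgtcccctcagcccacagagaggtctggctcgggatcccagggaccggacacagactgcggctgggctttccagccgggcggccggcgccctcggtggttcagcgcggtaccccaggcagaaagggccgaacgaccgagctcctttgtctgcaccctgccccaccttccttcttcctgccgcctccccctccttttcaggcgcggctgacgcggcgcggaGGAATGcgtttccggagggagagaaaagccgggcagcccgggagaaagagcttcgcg
Lamb3: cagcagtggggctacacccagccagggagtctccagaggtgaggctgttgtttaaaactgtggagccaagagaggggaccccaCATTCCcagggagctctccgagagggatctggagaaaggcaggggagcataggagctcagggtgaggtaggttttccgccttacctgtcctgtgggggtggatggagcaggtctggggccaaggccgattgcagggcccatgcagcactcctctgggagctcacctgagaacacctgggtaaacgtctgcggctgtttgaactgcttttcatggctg
A match is a description of these letters only. The 3 genes did not share a pattern: Itga10 rose in HFD, and neither Itgb1 nor Lamb3 was called in a comparison.

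The diet comparison asks what differs between tumours grown under high-fat and low-fat feeding. Higher in HFD were 7 of 16 tested integrin genes outside the leukocyte group and 4 of 10 laminin genes (19.4% of all genes tested were higher), while 4 of 7 leukocyte integrins were lower (21.6% of all genes). Itga10, a collagen receptor, rose by 2.60 ± 0.32, and Lama5, the alpha5 chain of laminin-511, by 1.63 ± 0.26, while Itgb1, the beta subunit shared by most matrix integrins, was at -0.04 ± 0.13 (adjusted p = 0.816). Of the 34 genes tested, 21 were called (61.8%), against 41.1% of all 16340 genes tested. Of the 21, 13 were higher and 8 lower. The median log2 fold change was 0.36 over the 34 genes and -0.0018 over all genes. In 15 of the 34 the HFD and LFD libraries did not overlap, 11 above and 4 below, against 30.6% of all genes. Without LFD replicates 1 and 5, a pair left out after the data were seen for their high hepatocyte sums, 14 genes were higher and 7 lower. In that fit 42.9% of all genes were called. With the mean of the hepatocyte markers as a covariate, which cannot be told apart from diet in these libraries, Itga10, Itgb3, Lama1 and Lama5 were called higher and Itga9, Itgal, Itga4 and Itgb2 lower, and 7.31% of all genes were called. With the mean of the pan-leukocyte markers as a covariate, where 38% of all genes were called, Itga3 (adjusted p = 0.0635), Itgb4 (0.0651), Itgav (0.0514), Itga9 (0.065), Itgbl1 (0.0533) and Lama2 (0.0637) lost their calls and kept their signs. Itga5, Itga6 and Lamb2, not called without a covariate, were called higher in that fit. The shCon tumours, also from high-fat-fed mice, stand in the other table, so their values are a description with no test. Mean CPM of Itga10, Itgb3 and Lama5 was 13.38, 13.03 and 7.672 in shCon. These means stood nearer to LFD (11.57, 11.39 and 6.119) than to HFD (70, 37.88 and 18.86). Among the genes called between the diets, the shCon mean was nearer to HFD only for Itga1, Itga7, Itgb4, Itgbl1 and Lama3. For all the others called it was nearer to LFD. Itgbl1 and Itgb4 averaged 29.37 and 3.369 in shCon, nearer to HFD (28.1 and 3.748) than to LFD (10.06 and 1.064). Hepatocyte sums were 11260 to 38750 CPM in shCon, above those of all HFD libraries (493 to 4431). Xist had 0 to 2 counts per shCon library and 1 to 6 per HFD library. Why HFD and shCon differed was not tested.

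**Figure D1:**
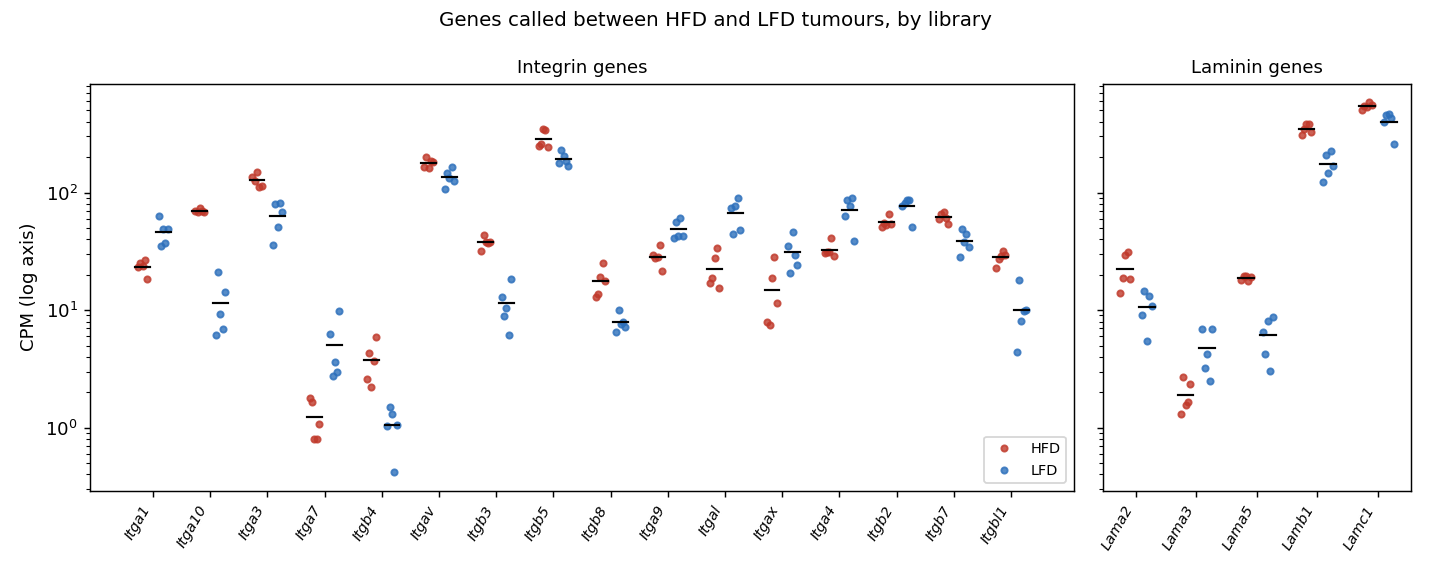
CPM on a log axis of the 16 integrin-rule genes and 5 laminin genes called between HFD (red, left of each pair) and LFD (blue), 1 point per library, with group means as bars. Itga10 sits between 68.2 and 73.3 CPM in HFD and between 6.11 and 21.2 in LFD, and the groups do not overlap for 15 of the 21 genes.

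Collagen receptors moved in opposite directions. Itga10, on chromosome 3 from 96645584 to 96664519 (GRCm38, plus strand) and known from cartilage and mesenchymal cells, had 69.9, 68.2, 73.3, 70.1 and 68.5 CPM in HFD and 6.11, 21.2, 9.21, 6.91 and 14.4 CPM in LFD. The HFD libraries lay within a narrow band, and the highest LFD library reached less than their lowest by a wide margin. The means were 70.0 ± 2.03 CPM in HFD and 11.6 ± 6.28 CPM in LFD (SD, n = 5 each; adjusted p = 0.000394). Itga1, on chromosome 13 from 114953096 to 115101964 (minus strand), known from smooth muscle, fibroblasts and endothelium, had 23.1, 25.2, 23.7, 26.9 and 18.5 CPM in HFD and 62.8, 35.4, 48.6, 37.3 and 48.7 CPM in LFD. Every HFD library was below every LFD library, and the gene fell by 0.99 ± 0.16 (adjusted p = 0.00151). Itga2 averaged 5.48 ± 0.366 CPM in HFD and 5.03 ± 1.66 CPM in LFD and was not called (0.12 ± 0.21, adjusted p = 0.684). Itga11, a fibroblast collagen receptor, had 4 to 12 counts per HFD library and 1 to 5 per LFD library and did not pass the filter on low counts. The gene model of Itga10 shares 33.5% of its exon bases with Gm42957 on the same strand, which was counted at 18 to 47 in HFD and 2 to 12 in LFD, while Itga10 had 1350 to 1455 counts in HFD and 89 to 409 in LFD.

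Laminin receptors rose in 2 of 4 genes and fell in 1 (all genes tested: 19.4% higher, 21.6% lower). Itga3, the alpha subunit of the receptor for laminin-332 and laminin-511, had 134.5, 124.5, 149, 112 and 115 CPM in HFD and 35.7, 79.6, 51.1, 81.1 and 68.3 CPM in LFD, a rise of 1.01 ± 0.21 (adjusted p = 0.00407). Itgb4, the beta4 subunit that anchors epithelial cells in hemidesmosomes, stood at 2.59, 4.34, 2.22, 3.72 and 5.87 CPM in HFD and 1.03, 1.503, 1.31, 0.419 and 1.06 CPM in LFD. Neither gene had an HFD library inside the LFD range. Itgb4, at 44 to 120 counts per HFD library and 8 to 29 per LFD library, rose by 1.81 ± 0.36 (adjusted p = 0.00349). Its partner Itga6 had 191.5, 215, 186, 199.6 and 193 CPM in HFD and 124, 159.8, 163, 208 and 121 CPM in LFD. LFD replicate 4 stood inside the HFD range, and Itga6 was not called (0.34 ± 0.14, adjusted p = 0.0742), but it was called without that library (0.47, adjusted p = 0.00846). Itga7, the laminin receptor of muscle, had 1.79, 1.67, 0.806, 0.805 and 1.08 CPM in HFD and 6.32, 2.75, 3.65, 2.99 and 9.77 CPM in LFD. All HFD libraries were below all LFD libraries, with a fall of 2.03 ± 0.41 (adjusted p = 0.00386). The highest LFD libraries for Itga7 were replicates 1 and 5, which also had the highest hepatocyte sums. Without these libraries Itga7 was still called lower. With the hepatocyte covariate, which cannot be told apart from diet, Itga7 was at 0.25 (adjusted p = 0.659).

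Itgb1, on chromosome 8 from 128685654 to 128733200 (plus strand), was the most abundant integrin gene per kilobase of exon. It had 604, 675, 626, 724 and 684 CPM in HFD and 679, 765, 761, 729.6 and 477.5 CPM in LFD, and the groups overlapped. Per kilobase it averaged 162 ± 11.8 CPM in HFD and 167 ± 29.3 CPM in LFD. The 12 alpha subunits that pair with beta1 summed to 127 ± 3.36 CPM per kilobase in HFD and 93.3 ± 16.1 in LFD (SD, n = 5 each), given as a description with no test.

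Receptors for the Arg-Gly-Asp motif rose in 4 of 7 genes tested and fell in none (all genes tested: 19.4% higher, 21.6% lower). Itgb3, the beta3 subunit of the vitronectin and fibrinogen receptors, on chromosome 11 from 104608000 to 104670476 (plus strand), had 31.6, 43.7, 38.3, 37.3 and 38.3 CPM in HFD and 13.1, 8.97, 10.4, 6.13 and 18.4 CPM in LFD. The lowest HFD library was above the highest LFD library, and the rise was 1.74 ± 0.25 (adjusted p = 0.00078). Itgb8, which with alphav activates latent TGF-beta, had 12.9, 13.8, 19.2, 25.0 and 17.6 CPM in HFD and 6.52, 10.1, 7.63, 7.91 and 7.24 CPM in LFD, a rise of 1.16 ± 0.20 (adjusted p = 0.00157). Itgb5, the second most abundant beta subunit per kilobase, had 250.4, 260.3, 346, 338 and 245 CPM in HFD and 177, 232, 204, 184 and 169 CPM in LFD, a rise of 0.58 ± 0.13 (adjusted p = 0.00676). HFD replicates 3 and 4 were the highest for Itgb5, and the groups did not overlap for either beta subunit. Their common partner Itgav rose by 0.40 ± 0.12, with 179 ± 15.1 CPM in HFD and 136 ± 22.4 CPM in LFD (SD, n = 5 each), and LFD replicate 4 at 166 CPM stood inside the HFD range. The call of Itgav (adjusted p = 0.0206) was lost without HFD replicate 2 (adjusted p = 0.0504). Itga5, the fibronectin receptor, averaged 219 ± 19.6 CPM in HFD and 169 ± 33.4 CPM in LFD and was not called (0.37 ± 0.14, adjusted p = 0.0528). It was called without LFD replicate 2, 3, 4 or 5, with adjusted p of 0.0481, 0.0443, 0.0281 and 0.0434. Itga8 (-0.996 ± 0.51) and the platelet subunit Itga2b (0.75 ± 0.34) were not called either, with adjusted p of 0.144 and 0.101.

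Itga9, which binds tenascin and osteopontin and is found in lymphatic endothelium, muscle and some myeloid cells, had 29.2, 27.7, 28.1, 36.1 and 21.4 CPM in HFD and 41.4, 56.2, 42.8, 61.0 and 42.3 CPM in LFD. The groups did not overlap and the gene fell by 0.77 ± 0.16 (adjusted p = 0.0038). Itgbl1 had 22.8, 27.5, 29.0, 31.7 and 29.5 CPM in HFD and 4.39, 18.1, 8.12, 9.74 and 9.93 CPM in LFD. LFD replicate 2 was the highest of its group and still below every HFD library, with a rise of 1.48 ± 0.30 (adjusted p = 0.00377).

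**Figure D2:**
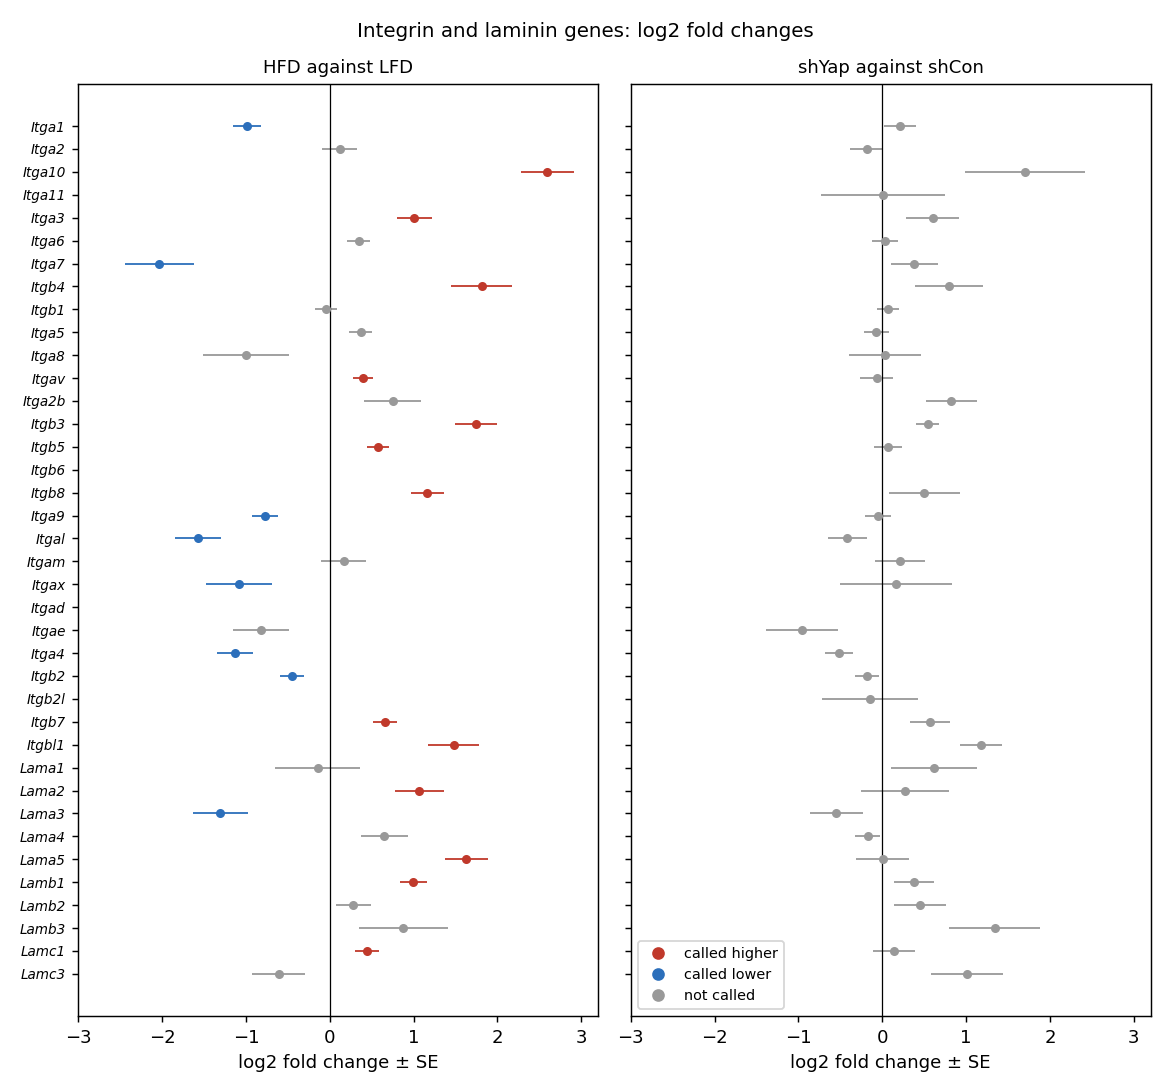
Log2 fold changes ± SE of each integrin and laminin gene, HFD over LFD on the left and shYap over shCon on the right, with genes called higher in red, called lower in blue and not called in grey; a gene without a point was not tested. On the left 13 genes are red and 8 blue, with Itga10 farthest right at 2.60 and Itga7 farthest left at -2.03, and on the right none is coloured.

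Laminin chains rose in 4 of 10 genes and fell in 1 (all genes tested: 19.4% higher, 21.6% lower). Their median log2 fold change was 0.55. Among the alpha chains, Lama5, the alpha5 chain of laminin-511 in epithelial and vascular basement membranes, on chromosome 2 from 180176373 to 180225859 (minus strand), had 18.04, 19.7, 19.7, 17.8 and 19.1 CPM in HFD and 6.46, 4.25, 8.06, 3.04 and 8.79 CPM in LFD. The HFD libraries were tightly grouped above all LFD libraries, a rise of 1.63 ± 0.26 (adjusted p = 0.00117). Lama2, the alpha2 chain of muscle and peripheral nerve, had 14.1, 18.8, 29.4, 31.3 and 18.3 CPM in HFD and 9.06, 14.6, 5.50, 13.2 and 10.9 CPM in LFD. HFD replicates 3 and 4 were the highest and HFD replicate 1 stood inside the LFD range, with a rise of 1.07 ± 0.29 (adjusted p = 0.0152). The call of Lama2 was lost without LFD replicates 1 and 5 (adjusted p = 0.0722) and with the closest HFD pairs summed (0.0504). Lama3, the alpha3 chain of laminin-332, went the other way, with 1.30, 2.68, 1.56, 1.66 and 2.35 CPM in HFD and 6.87, 3.21, 4.25, 2.51 and 6.92 CPM in LFD. LFD replicates 1 and 5 were the highest and the groups overlapped at their edges, with a fall of 1.30 ± 0.33 (adjusted p = 0.0105). Lama3 was still called lower without LFD replicates 1 and 5, and with the hepatocyte covariate it was at 0.0426 (adjusted p = 0.968). Lama4, of vascular laminin-411, ranged over 14.6 to 20.9 CPM in HFD and 4.82 to 15.4 CPM in LFD and was not called (0.65 ± 0.28, adjusted p = 0.0879), nor was Lama1 (-0.15 ± 0.51, adjusted p = 0.843).

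Lamb1, the beta1 chain of most laminins, on chromosome 12 from 31265234 to 31329644 (plus strand), had 306, 344.5, 381, 380.5 and 327 CPM in HFD and 122, 207, 147, 226 and 168.5 CPM in LFD. No HFD library was as low as any LFD library, and the gene rose by 0.998 ± 0.16 (adjusted p = 0.00132). Lamb2 (0.28 ± 0.21, adjusted p = 0.313) and Lamb3 (0.88 ± 0.53, adjusted p = 0.207) were not called. Lamb3, the beta3 chain of laminin-332, averaged 3.997 ± 1.40 CPM in HFD and 2.23 ± 2.11 CPM in LFD, where replicate 5 alone reached 5.86 CPM. Without LFD replicate 5, Lamb3 was higher in HFD by 1.62 (adjusted p = 0.00647).

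Lamc1, the gamma1 chain of most laminins and the most abundant laminin gene per kilobase of exon, had 503, 549, 539, 588 and 552 CPM in HFD and 395.5, 459, 463.5, 431 and 259.5 CPM in LFD. The groups did not overlap and the rise was 0.44 ± 0.15 (adjusted p = 0.0331), but the call was lost without HFD replicate 2, 3, 4 or 5 or LFD replicate 1, with adjusted p of 0.0609, 0.0602, 0.0704, 0.0635 and 0.064. Lamc3 was not called (-0.61 ± 0.32, adjusted p = 0.149).

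Chains were not measured in equal amounts. Summed per kilobase of exon, alpha chains came to 4.92 ± 0.573 CPM in HFD and 2.84 ± 0.777 CPM in LFD, beta chains to 51.0 ± 4.93 in HFD and 30.5 ± 6.79 in LFD, and the gamma chains Lamc1 and Lamc3 to 66.2 ± 3.67 in HFD and 48.8 ± 10.1 in LFD (SD, n = 5 each). Alpha chain RNA was thus the scarcest of the 3 kinds in both groups. In the hairpin table the alpha sums were 3.02 ± 0.877 in shYap and 2.94 ± 0.297 in shCon, with beta sums of 46.7 ± 19.0 and gamma sums of 54.2 ± 23.6 in shYap, against beta sums of 35.2 ± 0.841 and gamma sums of 49.0 ± 3.74 in shCon (SD, n = 4 each). Lengths are those of all exons of a gene joined, so a short isoform would be understated.

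**Figure D3:**
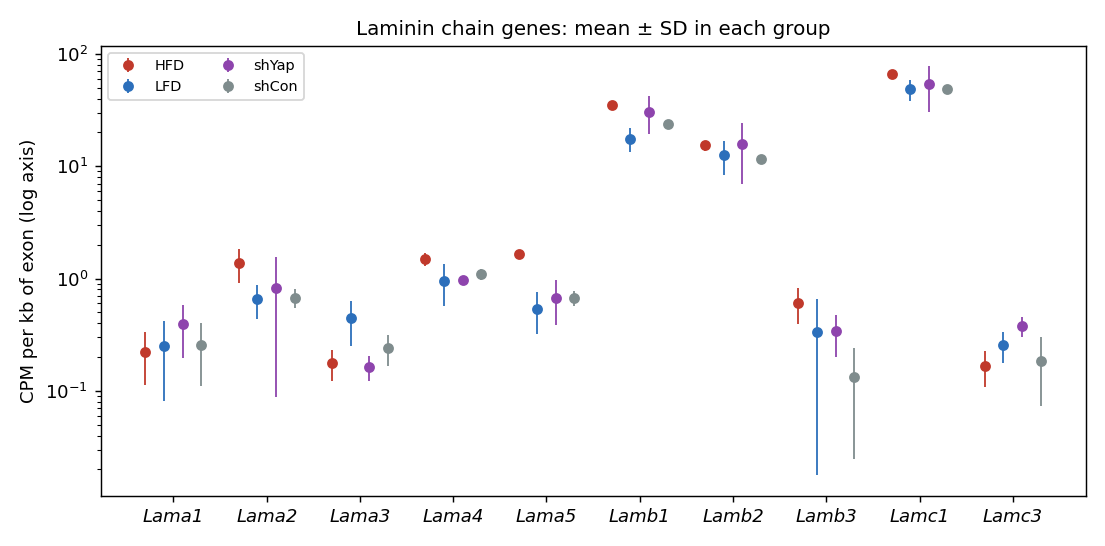
Mean ± SD of CPM per kilobase of exon, on a log axis, of 10 laminin chain genes in HFD (n = 5), LFD (n = 5), shYap (n = 4) and shCon (n = 4). Lamc1, Lamb1 and Lamb2 stand above all alpha chain genes in every group, and Lama5 is at 1.66 in HFD and 0.537 in LFD.

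Among the leukocyte integrins 1 of 7 tested was higher in HFD and 4 were lower (all genes tested: 19.4% higher, 21.6% lower). The 7 had a median of -0.82 on the log2 scale. Itgal, the alpha subunit of LFA-1 on lymphocytes, on chromosome 7 from 127296260 to 127335138 (plus strand), had 16.9, 18.7, 27.6, 33.8 and 15.3 CPM in HFD and 74.6, 44.5, 76.8, 89.4 and 47.9 CPM in LFD. Every HFD library was below every LFD library, a fall of 1.57 ± 0.27 (adjusted p = 0.00188). Itga4, the alpha subunit of VLA-4, had 30.4, 31.3, 31.0, 41.2 and 29.1 CPM in HFD and 63.7, 86.8, 76.4, 90.6 and 38.8 CPM in LFD. Only HFD replicate 4 reached the lowest LFD library, replicate 5, and the fall was 1.13 ± 0.21 (adjusted p = 0.00252). Itgax, known as CD11c of dendritic cells and some macrophages, had 7.93, 7.47, 18.8, 28.2 and 11.5 CPM in HFD and 35.4, 20.6, 46.6, 29.5 and 24.4 CPM in LFD, and HFD replicate 4 stood inside the LFD range.

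The falls of Itgax (-1.08 ± 0.39, adjusted p = 0.0476) and of Itgb2, the beta2 subunit of LFA-1 and Mac-1 (-0.45 ± 0.14, adjusted p = 0.0278) were called close to the threshold. With any 1 library left out Itgax stayed at -1.45 to -0.89 and Itgb2 at -0.54 to -0.39. The call of Itgax was lost without HFD replicate 1, 2, 3 or 5 (adjusted p = 0.0965, 0.0913, 0.0632 and 0.103) and without LFD replicate 1, 3, 4 or 5 (0.0921, 0.111, 0.0669 and 0.0591). That of Itgb2 was lost without HFD replicate 1, 2, 3 or 5 (adjusted p = 0.0667, 0.0573, 0.066 and 0.0636) and without LFD replicate 1, 3 or 4 (0.0515, 0.0577 and 0.0569). Neither was called with upper-quartile scaling. Itgae, the alpha subunit that holds resident T cells to E-cadherin, averaged 2.43 ± 1.33 CPM in HFD and 4.31 ± 0.84 CPM in LFD (-0.82 ± 0.33, adjusted p = 0.0721). It was called lower without HFD replicate 4 (-1.18, adjusted p = 0.00866). Itgam, the alpha subunit of Mac-1 on myeloid cells and in HFD the most abundant leukocyte integrin per kilobase, had 123, 138, 133, 147 and 128 CPM in HFD and 72.8, 194.5, 81.4, 165 and 82.7 CPM in LFD. LFD replicates 2 and 4 were above all HFD libraries and the other LFD libraries below them, and Itgam was not called (0.17 ± 0.27, adjusted p = 0.655). Its gene model shares 68.7% of exon bases with Gm49368 on the same strand, counted at 4 to 20 in HFD and 2 to 7 in LFD.

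Itgb7, which pairs with alpha4 and alphaE, was the leukocyte integrin that rose. It had 59.2, 66.0, 68.4, 61.3 and 54.3 CPM in HFD and 28.5, 49.4, 38.0, 44.8 and 34.5 CPM in LFD, with no overlap and a rise of 0.66 ± 0.14 (adjusted p = 0.00476). Of its alpha partners Itga4 fell and Itgae was not called. Below the filter on low counts, Itgb2l, a beta2-like gene known from neutrophils in mice, had 0 to 1 counts per HFD library and 8 to 20 per LFD library, and Itgad, of CD11d, had 0 to 1 in HFD and 2 to 30 in LFD. Neutrophil markers summed to 16.7 to 25.7 CPM in HFD and 64.3 to 121 in LFD, with 6 of 9 lower. Dendritic cell markers summed to 37.0 to 44.7 in HFD and 41.5 to 73.2 in LFD, with 6 of 7 lower. Of all genes tested, 21.6% were lower. None of the 9 macrophage markers was called, at sums of 2793 to 3645 CPM in HFD and 2112 to 4466 in LFD. The part of these cell types in the integrin differences was not tested.

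Ptprc, the common leukocyte antigen CD45, fell by 1.07 ± 0.23 (adjusted p = 0.00485), to 63.7 ± 15.3 CPM in HFD, against 133 ± 38.3 CPM in LFD (SD, n = 5 each). Taken as CPM per CPM of Ptprc, Itgal stayed lower in every HFD library, at 0.347 ± 0.0479 in HFD and 0.506 ± 0.0825 in LFD. The margin was narrow, with a highest HFD ratio of 0.4012 and a lowest LFD ratio of 0.4032. By the same ratio Itgb2 was higher in every HFD library, at 0.90 ± 0.13 in HFD and 0.591 ± 0.102 in LFD with no overlap. Itgb7 was at 1.01 ± 0.196 in HFD and 0.318 ± 0.123 in LFD, also with no overlap. For Itga4 (0.521 in HFD and 0.546 in LFD), Itgax (0.219 in HFD and 0.24 in LFD), Itgae and Itgam the groups overlapped. These ratios are a description, with no test, and they depend on Ptprc alone. The sum of the 10 pan-leukocyte markers, which include Ptprc, averaged 1058 CPM in HFD and 1442 in LFD. In proportion that was a smaller fall than the one of Ptprc. With the mean of the pan-leukocyte markers as a covariate Itgal was at -0.92 (adjusted p = 0.0224) and Itgb7 at 0.76 (0.025), both called. Itga4 was then at -0.43 (0.0814), Itgax at -0.42 (0.47) and Itgb2 at 0.0392 (0.777), none of them called.

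**Figure D4:**
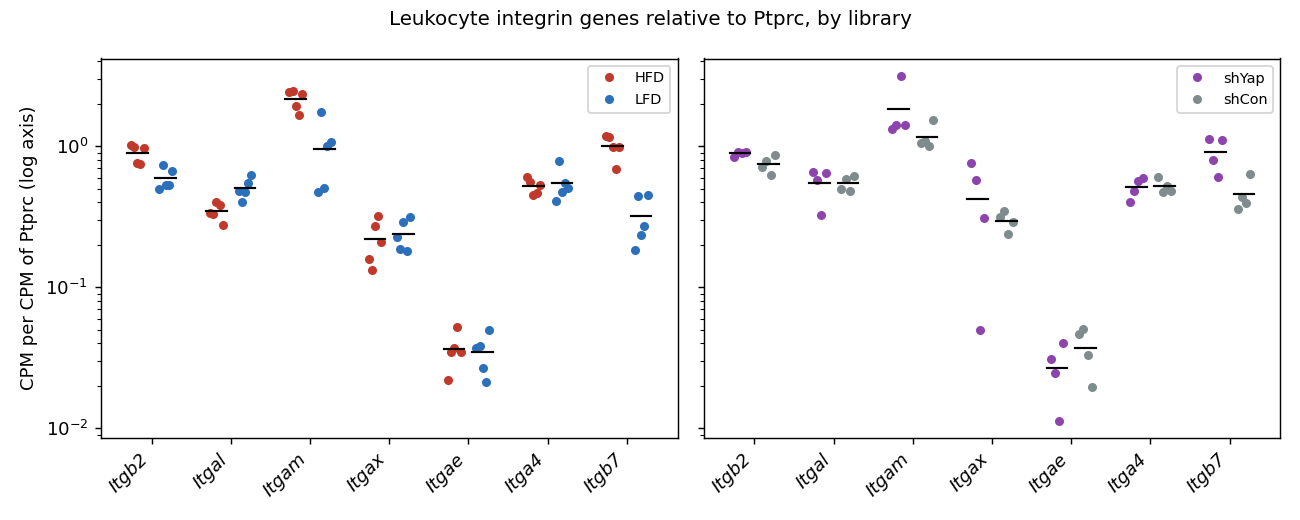
CPM of 7 leukocyte integrin genes divided by the CPM of Ptprc in the same library, on a log axis, for HFD and LFD on the left and shYap and shCon on the right, 1 point per library with group means as bars. HFD libraries lie above all LFD libraries for Itgb2 and Itgb7 and, by a narrow margin, below them for Itgal, and in the right panel the groups overlap for all 7 genes.

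Among genes that work with integrins and laminins, counts are to be read against 19.4% of all genes higher and 21.6% lower. Of 25 adhesion adaptors and kinases tested, 9 were higher in HFD and 3 lower. Tln2, a talin that activates integrins, rose by 0.99 (adjusted p = 0.000279), the actin crosslinker Actn1 by 0.99 and the kinase Src by 0.89, while Ptk2b, the focal adhesion kinase homologue of leukocytes and neurons, fell by 0.9998 (adjusted p = 0.00139). Of 14 basement membrane partners of laminins 3 rose and none fell, namely the collagen IV chain Col4a5 (1.21), perlecan Hspg2 (0.73) and agrin Agrn (0.34). Of 12 matrix ligands 4 rose and 2 fell. Spp1, which encodes osteopontin, a ligand of alphav and alpha9 integrins, rose by 1.93, Tnc, which encodes tenascin C, by 1.38 and the fibrillin Fbn1 by 0.88. Npnt, the nephronectin ligand of alpha8 integrin, fell by 2.97. Vtn, which encodes vitronectin, fell by 4.08 (adjusted p = 0.00463), and Fn1, which encodes fibronectin, rose by 0.92 (0.0184). Of 9 tested cell-surface ligands of leukocyte integrins none rose and 2 fell, Icam1, which binds LFA-1, by 0.88 and Cdh1, the E-cadherin bound by alphaE, by 1.89.

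The hairpin comparison asks what differs between tumours labelled shYap and shCon. Yap1 itself had 71.6, 80.0, 81.4 and 70.5 CPM in the libraries labelled shYap and 78.1, 82.4, 73.8 and 77.4 CPM in shCon, a log2 fold change of -0.04 ± 0.11 (adjusted p = 0.937). The groups overlapped, so in this tissue RNA the label was not borne out by the level of Yap1, and directions below belong to the libraries as labelled. Of the 36 integrin and laminin genes tested none was called, against 0% of all 16571 genes in edgeR in either direction, 0% higher and 0% lower. An unadjusted p under 0.05 was found in 9 of the 36 and in 1804 of all genes. DESeq2 called 2 of the 36, both higher in shYap, Itgbl1 (adjusted p = 0.00377) and Itgb3 (0.0212), among 124 genes higher and 286 lower. With limma voom none was called. In 3 of the 36 the groups did not overlap, against 6.57% of all genes: these 2 genes above and Itga4 below.

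Itgbl1 had 52.9, 48.8, 110.2 and 54.0 CPM in libraries labelled shYap and 28.3, 28.7, 28.0 and 32.5 CPM in shCon. Replicate 3 stood far above the other shYap-labelled libraries, which themselves stood above all shCon libraries. The log2 fold change was 1.18 ± 0.26 (adjusted p = 0.158), and 0.84 (adjusted p = 0.128) without that replicate. Itgb3 had 19.7, 16.4, 20.6 and 19.1 CPM under the shYap label and 12.97, 12.9, 12.0 and 14.2 CPM in shCon, with little spread in either group (0.54 ± 0.14, adjusted p = 0.192). Itga4 had 36.0, 40.1, 42.8 and 34.4 CPM under the shYap label and 71.1, 47.0, 55.8 and 45.1 CPM in shCon (-0.51 ± 0.17, adjusted p = 0.305).

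Parvg, a leukocyte parvin of the adaptor list, had the smallest p of the adhesion genes, at -0.96 ± 0.14 (adjusted p = 0.149), and Spp1 was at 0.67 ± 0.15 (adjusted p = 0.167). None of the 25 adaptors, 14 basement membrane partners, 12 matrix ligands and 8 cell-surface ligands tested was called in edgeR.

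Within the shYap label, replicate 3 stood apart in several matrix genes. Itga10 had 13.7, 25.4, 121 and 13.9 CPM in libraries labelled shYap and 16.3, 13.9, 16.2 and 7.12 CPM in shCon, so the fold change of 1.70 ± 0.72 (adjusted p = 0.442) became 0.42 without replicate 3. Lamc1 had 338, 354, 737 and 351 CPM under the shYap label and 442, 407, 401 and 365 CPM in shCon. Without replicate 3 its fold change of 0.14 became -0.19, the other shYap-labelled libraries all being below the shCon libraries. Lamb2, at 175 CPM in that library against 65.9 to 72.8 CPM in the other shYap-labelled ones, and Lama2, at 31.0 CPM against 4.56 to 10.2, showed the same departure. Lamb1 spread from 172 to 437 CPM under the shYap label and from 225 to 243 CPM in shCon (0.38 ± 0.24, adjusted p = 0.639). Itgam was high in that library (237 CPM, the others 81.7 to 119) and Itgax low (3.74 CPM, the others 17.9 to 68.3). The gene Gm42957, which overlaps Itga10, also ran high in a library of this group, with 3 to 87 counts under the shYap label and 6 to 17 in shCon.

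**Figure D5:**
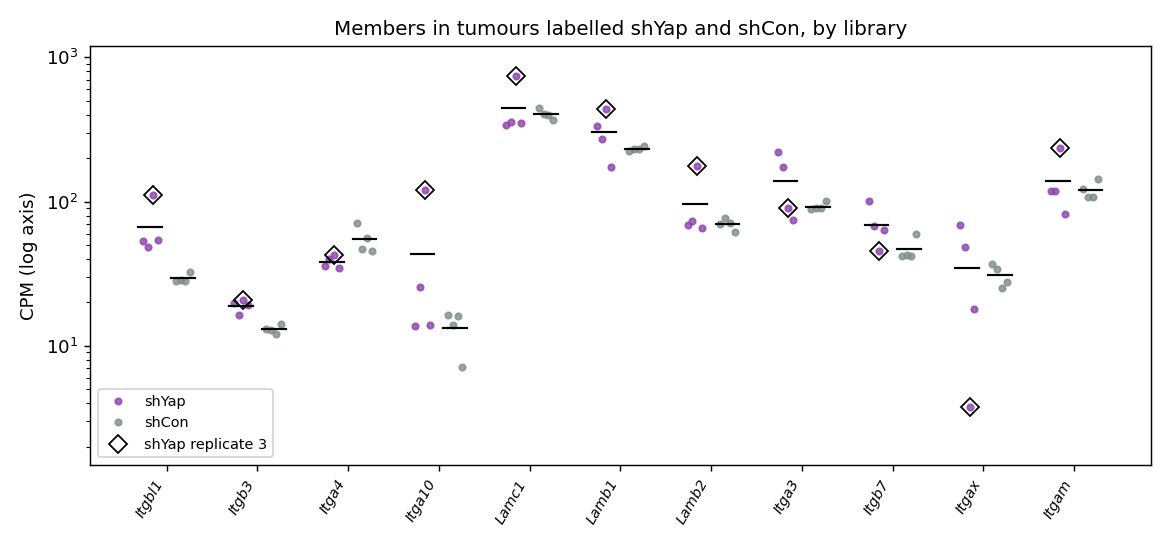
CPM on a log axis of 11 integrin and laminin genes in the libraries labelled shYap (purple, left of each pair) and shCon (grey), 1 point per library, group means as bars and shYap replicate 3 marked by a diamond. Replicate 3 is the highest library for Itga10 (121 CPM) and Lamc1 (737 CPM) and the lowest for Itgax (3.74 CPM), and the groups do not overlap for Itgbl1, Itgb3 and Itga4.

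Itgb1 overlapped between the hairpin groups, with 568, 539, 599 and 517 CPM under the shYap label and 572, 549, 557 and 446 CPM in shCon (0.07 ± 0.13, adjusted p = 0.905). Itga3 ranged widely under the shYap label, with 222, 173, 90.9 and 74.0 CPM, against 88.3, 89.8, 89.9 and 101.1 CPM in shCon (0.60 ± 0.32, adjusted p = 0.561). Itga6 averaged 183 ± 38.8 CPM under the shYap label and 179 ± 8.83 CPM in shCon, and Itgb5 220 ± 51.6 under the shYap label and 209 ± 12.4 in shCon (SD, n = 4 each). Among the scarcer genes at an unadjusted p under 0.05, Lamb3 was at 1.34 ± 0.55, Lamc3 at 1.01 ± 0.43 and Itga2b at 0.82 ± 0.30, with adjusted p of 0.418, 0.442 and 0.366. Itgae was at -0.96 ± 0.43 (adjusted p = 0.457), and Itgb7 at 0.57 ± 0.24 (adjusted p = 0.426). Itgb6, an epithelial partner of alphav, had 0 to 1 counts under the shYap label and 2 to 10 in shCon, and Itgad 0 counts under the shYap label and 0 to 3 in shCon, and neither was tested.

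No marker of the leukocyte lists was called between the hairpin groups. The pan-leukocyte sum was 1311 to 1496 CPM under the shYap label and 1597 to 1779 CPM in shCon, and the T cell sum 21.03 to 33.1 CPM under the shYap label and 44.3 to 110.1 CPM in shCon, with no overlap in either. The dendritic cell sum did not overlap either, at 30.7 to 39.5 CPM under the shYap label and 48.6 to 60.9 CPM in shCon. Epithelial and cholangiocyte markers, which include Spp1, summed to 916 to 1141 CPM under the shYap label and 568.5 to 885 CPM in shCon, with no overlap and none called. The neutrophil sum overlapped, at 48.9 to 207.6 CPM under the shYap label and 48.9 to 154.9 CPM in shCon. Ptprc averaged 76.4 ± 13.7 CPM under the shYap label and 104 ± 9.85 CPM in shCon (-0.44 ± 0.15, adjusted p = 0.335). Hepatocyte sums overlapped, at 13510 to 67770 CPM under the shYap label and 11260 to 38750 CPM in shCon. The part of these cells in the values of Itga4, Itgal (-0.42 ± 0.24, adjusted p = 0.586) and Itgae was not tested.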

How the data were processed

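RNA of 18 liver tumour libraries was analysed, 10 in a table of HFD and LFD with 8 more in the table of the hairpin groups. The authors deposited estimated counts, 1 row per gene, many of them not whole numbers. STAR 2.7.3a, Partek and DESeq2 are named, without role or order, together with the builds GRCm38 and mm10, per the submitters' processing notes. The annotation used for counting, the read length and the library strand are not given in the sources used here, and sense and antisense reads of overlapping genes cannot be told apart.

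Estimated counts were rounded to whole numbers, and each table was fitted alone with edgeR 4.0.16 in R 4.3.3, using filterByExpr, TMM factors and the robust quasi-likelihood F test with no covariate. Standard errors were taken as log2 fold change over the root of the F statistic. Adjusted p-values are Benjamini-Hochberg values over all 16340 and 16571 genes tested, with 0.05 as the threshold. Genes with few counts are the least precise, and their counts are given beside their values. On simulated counts with 200 changed genes, the HFD and LFD design with 16340 genes called 56% of genes changed 2-fold and 93% of those changed 4-fold. The shYap and shCon design with 16571 genes called 39% and 83%. Between the diets 6710 genes were called, far more than were changed in the simulation, so its shares are not detection rates of the diet comparison. Between shYap and shCon 0 genes were called, where 200 were changed in the simulation, so its shares are not detection rates there either.

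A GENCODE M21 gene of equal symbol, start and strand was found for 97.4% of genes in the diet table and 97.1% in the hairpin table. Deposited ends were mostly 1 base beyond those of GENCODE, which are the ones printed. Exon lengths and overlaps are from GENCODE M21, and promoters from RefSeq.

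Of the 39 genes the symbol rule finds, 38 are accounted for and 1 is not reported here. Values in each library are printed for genes called with an absolute log2 fold change of at least 0.5 and for an abundant gene of each role. Of the partner lists up to 4 genes by smallest p are named, and Vtn and Fn1 besides. In the shYap comparison, genes with libraries that did not overlap or with 1 library far from the others were named after their values were seen. The genes and lists were chosen with earlier results of these data known.

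HFD replicates 1 and 2 and HFD replicates 3 and 4 were the closest pairs, at a chi-square per degree of freedom of 6.08 and 5.02, where the remaining HFD pairs had 10.8 to 26.7. LFD pairs had 23.4 to 417, shYap pairs 37.9 to 204 and shCon pairs 12.1 to 135. The HFD values are above sampling noise, so the 5 libraries were kept as separate samples. Such values cannot show whether each library came from its own tumour or animal. Alternatives were DESeq2 1.42.0, limma 3.58.1 voom, RLE and upper-quartile factors, no filter or a filter at 1 CPM, a block for replicate number, the mean log2 CPM of hepatocyte or pan-leukocyte markers as a covariate, the closest HFD pairs summed, and each library left out. A fit without LFD replicates 1 and 5 was added after the data were seen. Libraries labelled shYap replicates 3 and 4 are columns numbered 4 and 5 in their table.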

Additional observations from a re-analysis of the deposited data

Results flagged for a closer look

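In each group the highest or lowest library was set against the others by its gap over the group's range, which chance flags in about 1 of 20 groups. Of 140 groups of values, 14 were flagged, 5 in shYap, 6 in shCon and 3 in HFD. The 5 in shYap all belong to replicate 3: Itga10 at 121 CPM, the next library at 25.4, Itga11 at 1.99 CPM, the next at 0.404, Itgbl1 at 110.2 CPM, the next at 54.0, Lamb2 at 175 CPM, the next at 72.8, and Lamc1 at 737 CPM, the next at 354. In shCon, replicate 4 was the highest for Itga3 at 101.1 CPM, for Itgb7 at 59.8 CPM and for Itgbl1 at 32.5 CPM. Replicate 3 of shCon was the lowest for Itgal at 51.5 CPM and the highest for Lama5 at 9.39 CPM, and replicate 2 the lowest for Itga6 at 165.5 CPM. In HFD, replicate 4 was the highest for Itga4 at 41.2 CPM and for Itgb2 at 66.3 CPM, and replicate 2 for Itga2b at 9.49 CPM. What set these libraries apart was not tested.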

How the results depend on the processing

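Of the integrin and laminin genes in HFD against LFD, 13 were higher and 8 lower. Leaving out 1 library gave 11 to 15 higher and 6 to 10 lower, where 33.3% to 43.7% of all genes were called. In shYap against shCon it gave 0 of either, where 0% to 0.558% of all genes were called. DESeq2, limma voom, other scaling factors and filters gave 13 to 16 higher and 6 to 9 lower, where 33.1% to 44.6% of all genes were called. The closest HFD pairs summed gave 10 and 7, with Itgav, Itgax, Itgb2, Lama2 and Lamc1 lost. With these pairs summed 2056 genes in all were higher and 2177 lower, against 3178 and 3532 without summing. In shYap against shCon DESeq2 called 2 higher, where 2.47% of all genes were called. With the hepatocyte covariate 4 genes were higher and 4 lower (574 and 620 of all genes), and with the pan-leukocyte covariate 11 and 4 (2825 and 3388). Hepatocyte sums do not overlap between the diets, so that covariate and diet cannot be told apart. With the hepatocyte covariate Itga7 turned to 0.25 (adjusted p = 0.659), Lama1 to 2.58 (0.0234), Lama3 to 0.0426 (0.968) and Lamc1 to -0.0608 (0.897), and with the pan-leukocyte covariate Itgb2 to 0.0392 (0.777). The cause was not tested. Itga10, Itgb3 and Lama5 were called higher and Itgal lower in both covariate fits. Genes called in neither fit also changed sign, 7 with the hepatocyte covariate and up to 3 in the other fits of that comparison. In shYap against shCon 14 of 36 changed sign with the pan-leukocyte covariate, 8 without shYap replicate 3 and up to 4 in the other fits. With the replicate number as a replicate block 12 were higher and 8 lower, Lamc1 being lost, where 30.2% of all genes were called. The same block gave 0 in shYap against shCon, where 0% of all genes were called. Deviations of same-numbered libraries correlated at -0.5 to 0.315 and -0.052 to 0.182. The labels do not say whether the numbers pair the samples, and so few correlations cannot decide it. Counts of some genes were low (Itgb4, Itga7, Lama3), which limits their precision.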
